A study of Mus musculus with 7 samples.

Results

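Brown and beige fat cells burn fuel to make heat, and 8 genes that mark these cells or drive their thermogenic program were followed across 7 mouse expression arrays. The genes are Ucp1, Dio2, Prdm16, Ppargc1a, Elovl3, Kcnk3, Zic1 and Tmem26. They were matched by transcript accession to 10 of the 55681 probes on the array, with 2 probes each for Ppargc1a and Zic1, and they are 8 of 21154 genes named there. All 8 had at least 1 probe bright enough to be tested, as did 18030 genes in all. Ucp1 passed that filter through the cΔex3-labelled arrays alone, so its groups had to differ. The same holds for each gene described below as lacking a signal well above background throughout 1 group, and nothing is read from its call. The 8 genes were chosen on measured values, the processed signals and above-background flags of these same arrays, with the difference between the groups in view. Their levels and differences are therefore given as a description, with limma's standard error and no p-value.

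The study, by its title, dealt with β-catenin in the dermal sheath, the mesenchymal layer around the hair follicle. The β-catenin activation group, cΔex3 in its source names, had 4 arrays that came from 6 mice, with 1 mouse each on arrays 1 and 4 and 2 pooled on each of arrays 2 and 3. The 3 arrays labelled control came from 4 mice, with 1 mouse each on arrays 1 and 2 and 2 pooled on array 3. In both groups the cells were sorted from dorsal skin at postnatal day 15, as YFP+ CD34- ALP- ITGα8- cells, and 10 ng of total RNA was linearly amplified and labelled with Cy3. The sort is as the labels give it, and whether the RNA came from the sorted cells cannot be told from these arrays. The driver of the recombination and of YFP is not given in the sources used here. Loss of exon 3 from β-catenin removes sites whose phosphorylation marks the protein for destruction.

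Brown fat cells hold many mitochondria whose inner membrane carries UCP1, a protein that lets protons back into the matrix without ATP synthesis. Cold acts through noradrenaline, β-adrenergic receptors and cAMP to release fatty acids and to raise transcription of Ucp1, Dio2 and Ppargc1a. Beige cells are thermogenic cells that arise within white fat depots, and they share Ucp1, Prdm16 and Ppargc1a with brown fat. Zic1 is used as a marker of classical brown fat, and Tmem26 of beige cells.

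Array depth and RNA makeup differed between the groups. On the cΔex3-labelled arrays the processed signal had a 75th percentile of 1348 to 2160 and 68.0% to 82.0% of probes were well above background. On the control-labelled arrays these were 756.1 to 907.0 and 68.5% to 70.7%. Levels below are log2 of the processed signal relative to that percentile, so an equal signal reads lower on a cΔex3-labelled array. Differences are cΔex3-labelled minus control-labelled on the same log2 scale, with a precision limited by the 7 arrays. For 4 of 7 arrays the header and the file name gave unlike slide positions, and samples were assigned by the deposit's record. Ctnnb1, which encodes β-catenin, stood between 3.39 and 3.49 on the cΔex3-labelled arrays and between 3.45 and 3.47 on the control-labelled arrays, at a probe whose place relative to exon 3 is not known, so it does not check the genotype. Axin2, a target gene of β-catenin signalling, read 0.58, 0.40, 0.17 and 0.74 on the cΔex3-labelled arrays and -1.02, -0.76 and -0.21 on the control-labelled arrays, a difference of 1.14 ± 0.25 (SE, limma adjusted p = 0.0077).

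Markers of other cells moved with the groups, and every difference of the 8 genes stands beside them. Over all 18030 genes tested, 24% were higher, 29.1% lower and 53.1% past the threshold in all (limma, Benjamini-Hochberg adjusted p under 0.05), and the counts of every list below stand against these shares. All 17 hepatocyte markers tested fell on the cΔex3-labelled arrays (limma, adjusted p under 0.05), with a log2 summed level of 5.78 to 7.97 there and of 12.18 to 12.61 on the control-labelled arrays. One of them, Baat, a bile acid enzyme, was not well above background on any cΔex3-labelled array. General fat cell markers numbered 16, and limma put 13 higher and 0 lower on those arrays (13 and 1 at an unadjusted p under 0.05). Their log2 summed level was 10.11 to 11.26 on the cΔex3-labelled arrays and 8.76 to 8.99 on the control-labelled arrays. Among the white fat genes, 7 of 8 were higher and 0 lower at either threshold, with summed levels of 6.99 to 8.85 on the cΔex3-labelled arrays and of -0.18 to 0.23 on the control-labelled arrays. Slc7a10, Hoxc8 and Hoxc9 of that list were not well above background on any control-labelled array, so they could be tested only because the other group was bright. Of 8 dermal sheath markers 7 were higher and 0 lower at either threshold, with summed levels of 7.02 to 7.91 against 4.62 to 5.16. On the control-labelled arrays Lox and Col11a1 of that list were not well above background. On the control-labelled arrays the dermal sheath markers averaged -1.69 to -1.0 and the hepatocyte markers 6.94 to 7.62. Smaller counts were found for endothelium (4 of 6 higher, 1 lower), neural cells (3 of 8 higher), keratinocytes (1 of 5 higher) and macrophages (1 of 4 higher). In bulk RNA, fewer cells of a type and less RNA per cell cannot be told apart, and the part of these cell types in the differences below was not tested.

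**Figure D1:**
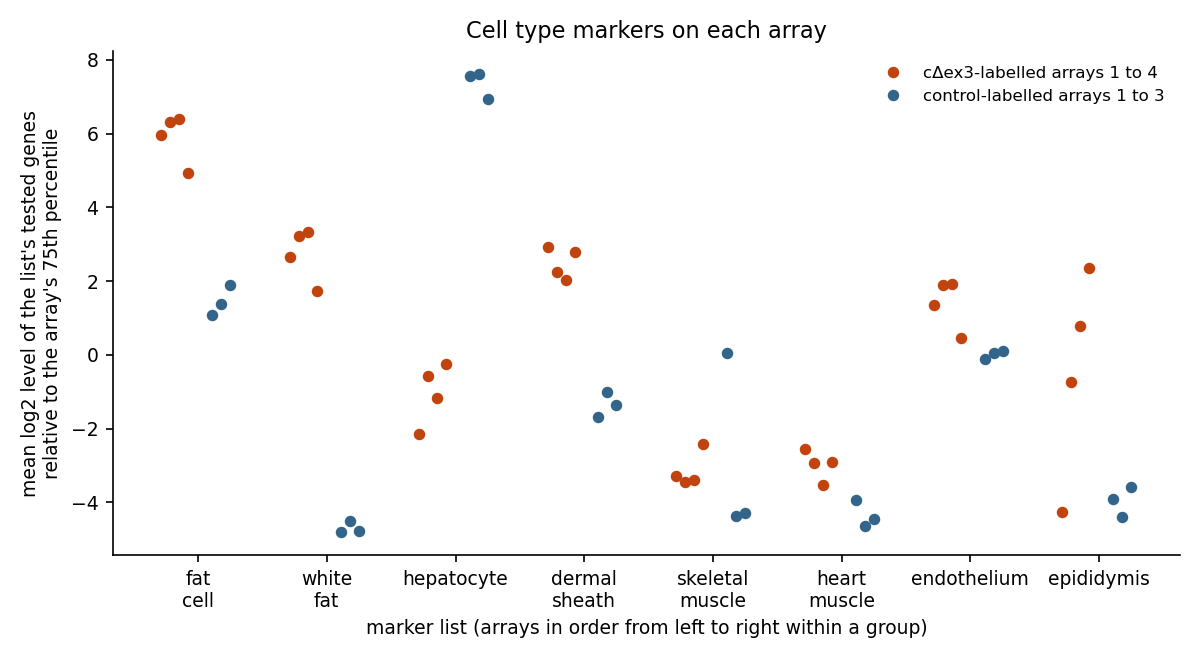
Mean log2 level, relative to the array's 75th percentile, of the tested genes of 8 marker lists, with 1 point per array and arrays in order within each group (cΔex3-labelled 1 to 4, control-labelled 1 to 3). Hepatocyte markers averaged -2.16 to -0.25 on the cΔex3-labelled arrays and 6.94 to 7.62 on the control-labelled arrays, while the fat cell markers averaged 4.92 to 6.40 and 1.08 to 1.90.

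The 8 genes did not move as a block. Ucp1, Dio2, Prdm16 and Kcnk3 (4 genes) were higher on every cΔex3-labelled array than on any control-labelled array, and Elovl3 and Tmem26 (2 genes) were lower on every one, while Ppargc1a and Zic1 overlapped. Over all 18030 genes tested, 26.1% were higher without overlap and 32.6% lower, or 58.7% in either direction. A difference of at least 2-fold was measured for 6 of the 8 genes, against 46.4% of all genes. The median difference was 0.26 over the 8 genes and -0.08 over all genes tested. Since the genes were chosen with this comparison in view, nothing is read from these shares.

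**Figure D2:**
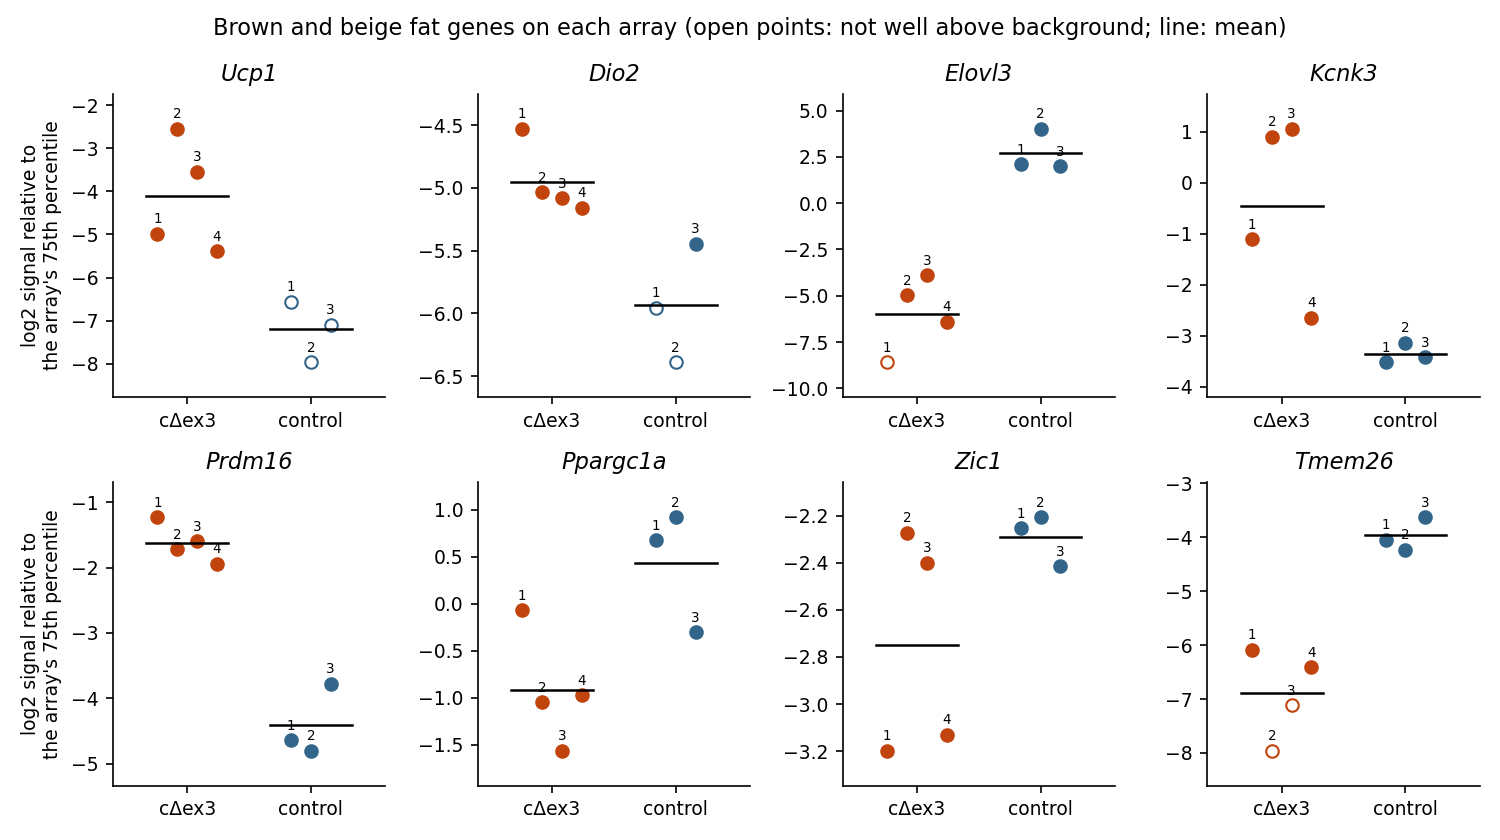
Log2 level of the 8 genes relative to the array's 75th percentile, with 1 numbered point per array, open where the probe was not well above background, and a line at the group mean; each panel has its own axis. Ucp1 was above background on 4 of 4 cΔex3-labelled and 0 of 3 control-labelled arrays, and Elovl3 lay between -8.59 and -3.89 on the cΔex3-labelled arrays and between 2.01 and 4.03 on the control-labelled arrays.

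Ucp1 (chromosome 8), the uncoupling protein itself, gave a processed signal of 58.7, 231.3, 142.5 and 51.4 on cΔex3-labelled arrays 1 to 4, against 8.09, 3.03 and 6.64 on control-labelled arrays 1 to 3. It was well above background on all 4 of the cΔex3-labelled arrays and on 0 of the 3 control-labelled ones. The relative levels were -4.99, -2.54, -3.54 and -5.39 on the cΔex3-labelled arrays and -6.56, -7.96 and -7.09 on the control-labelled arrays. Arrays 2 and 3 of the cΔex3 group were its highest, and the lowest cΔex3-labelled array stood 1.17 above the highest control-labelled one. The control signal is only a bound, so on this scale Ucp1 was at least 2.99-fold higher on the cΔex3-labelled arrays. That sets the brighter group's mean against the lowest signal that counts as above background on each control-labelled array. Like every at-least fold below, it holds for the scaled processed signal only, and normexp and the deposited series values gave less for Ucp1. The fitted difference, which uses the dim control signals, was 3.09 ± 0.73 (SE). It was 1.10 with the deposited series values and 0.30 after a normexp background correction with an offset of 50, which draws dim signals together.

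Dio2 (chromosome 12) encodes the deiodinase that turns thyroxine into active triiodothyronine within brown fat cells. Its levels were -4.53, -5.04, -5.08 and -5.16 on the cΔex3-labelled arrays and -5.95, -6.39 and -5.45 on the control-labelled arrays. The groups lay 0.29 apart, and only control-labelled array 3 was well above background in its group. The means were -4.95 ± 0.29 (SD, n = 4) and -5.93 ± 0.47 (SD, n = 3), a difference of 0.98 ± 0.28 (SE). The direction was not stable, since the difference was -0.38 with normexp and 0.32 with the deposited series values.

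Elovl3 (chromosome 19), an enzyme that elongates saturated and monounsaturated very long chain fatty acids, showed the widest gap of the 8 genes. It is induced in brown fat by cold and is also made in liver and sebaceous glands. Processed signals were 4.84, 43.1, 112.3 and 25.4 on the cΔex3-labelled arrays and 3301, 12374 and 3659 on the control-labelled arrays. On the relative scale these were -8.59, -4.97, -3.89 and -6.41, against 2.11, 4.03 and 2.01. Array 1 of the cΔex3 group was not well above background, and the highest cΔex3-labelled array was still 5.90 below the lowest control-labelled one. The difference was -8.68 ± 1.13 (SE), a 411-fold lower mean on the cΔex3-labelled arrays. It was -6.69 with normexp, -6.22 with the deposited series values and -10.57 between arrays of 1 mouse. Sebocyte markers, 5 of 7 tested, averaged -3.73 to -2.95 on the cΔex3-labelled arrays and -4.12 to -2.99 on the control-labelled arrays. They went both ways, with 1 higher and 2 lower (limma, adjusted p under 0.05). Mc5r, 1 of the 2, gave 5.96 at its other probe. The part of sebaceous cells in the Elovl3 levels was not tested.

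Kcnk3 (chromosome 5), a two-pore potassium channel that shapes the membrane potential of brown fat cells, had the widest spread of the 8 genes among the cΔex3-labelled arrays after Elovl3. Its levels there were -1.11, 0.90, 1.06 and -2.65, against -3.52, -3.13 and -3.42 on the control-labelled arrays. All 7 arrays were well above background. The control-labelled arrays spanned 0.38 and the cΔex3-labelled arrays 3.71, and array 4 of the cΔex3 group came within 0.48 of the highest control-labelled array. The mean difference was 2.91 ± 0.90 (SE). It was 1.44 between arrays of 1 mouse and 4.34 without cΔex3-labelled arrays 1 and 4.

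Prdm16 (chromosome 4) encodes a zinc finger coregulator that switches on brown fat genes and holds back white fat genes. Its levels were -1.23, -1.72, -1.59 and -1.94 on the cΔex3-labelled arrays and -4.64, -4.80 and -3.78 on the control-labelled arrays, and all 7 arrays were well above background. The cΔex3-labelled arrays spanned 0.72, unlike the wide spread of Ucp1 and Kcnk3, and the groups lay 1.83 apart. The difference was 2.79 ± 0.30 (SE), or 6.90-fold. It was 1.58 with normexp and 1.97 with the deposited series values.

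Ppargc1a (chromosome 5) encodes PGC-1α, a coactivator that drives mitochondrial biogenesis and binds nuclear receptors at the Ucp1 enhancer, and it is also induced in fasting liver. Its brighter probe read -0.07, -1.05, -1.56 and -0.97 on the cΔex3-labelled arrays and 0.67, 0.92 and -0.30 on the control-labelled arrays. The groups overlapped, since cΔex3-labelled array 1 lay above control-labelled array 3. The difference was -1.34 ± 0.43 (SE) at this probe and -1.30 at the other, where the groups also overlapped. Both probes were well above background on all 7 arrays.

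Zic1 (chromosome 9), a zinc finger transcription factor of neural and somite development, had levels of -3.20, -2.27, -2.40 and -3.13 on the cΔex3-labelled arrays and of -2.25, -2.21 and -2.42 on the control-labelled arrays at its brighter probe. Arrays 2 and 3 of the cΔex3 group lay within the control-labelled range and arrays 1 and 4 below it. The difference was -0.46 ± 0.28 (SE), and it was -0.93 between arrays of 1 mouse and -0.04 without cΔex3-labelled arrays 1 and 4. A second probe was well above background on 0 of 4 cΔex3-labelled and 1 of 3 control-labelled arrays and was not tested. Of the other Zic genes only Zic4 was tested, at -1.36 ± 0.48 (SE, limma adjusted p = 0.0496), a call lost in 11 other settings, among them without any 1 of the arrays except cΔex3-labelled array 2 (range -1.70 to -0.98), while Zic2 and Zic5 were too dim.

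Tmem26 (chromosome 10), a membrane protein used to sort beige precursors, was lower on the cΔex3-labelled arrays. Levels were -6.08, -7.96, -7.12 and -6.41 there, against -4.05, -4.23 and -3.63 on the control-labelled arrays. Arrays 2 and 3 of the cΔex3 group were not well above background, and the groups lay 1.85 apart. The difference was -2.92 ± 0.45 (SE). It was -1.47 with normexp, -0.88 with the deposited series values and -2.10 between arrays of 1 mouse.

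**Figure D3:**
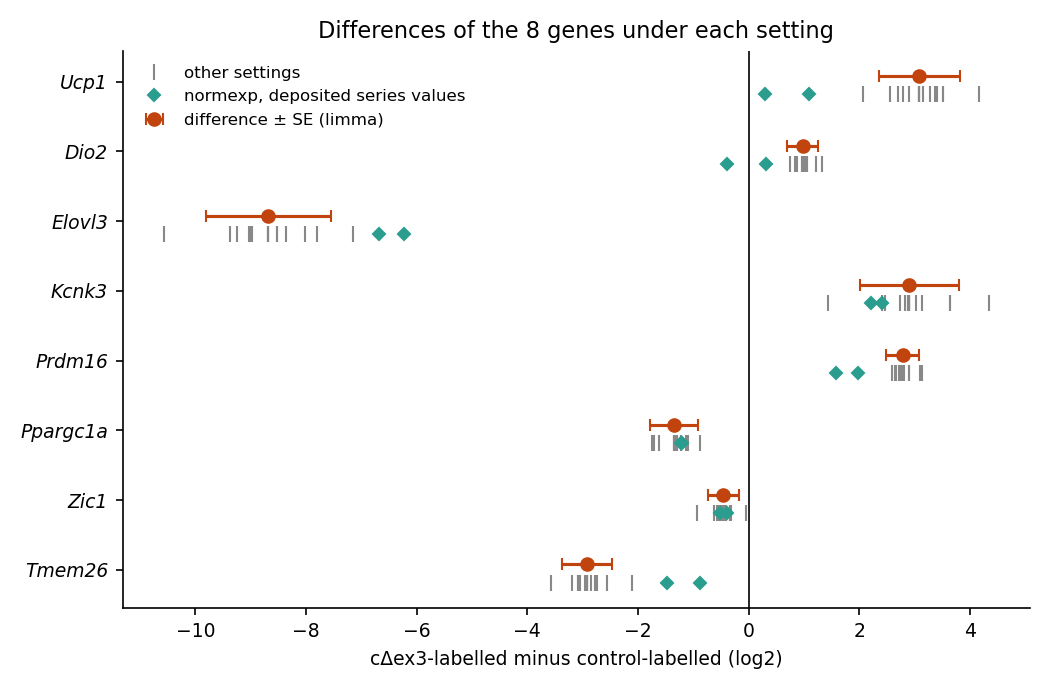
Differences of the 8 genes, cΔex3-labelled minus control-labelled arrays on the log2 scale; points with bars are the differences ± SE of limma, ticks the other settings and diamonds the normexp and deposited series values. Dio2 crosses 0 with normexp (-0.38), while Ucp1 moves to 0.30 and 1.10 and Elovl3 stays at -6.22 or lower.

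Ucp1, Dio2 and Ppargc1a are textbook targets of cAMP, and their proximal promoters are shown because their differences here were unlike, at 3.09, 0.98 and -1.34. The first 2 values rest on dim control signals and were 0.30 and -0.38 with normexp, so the contrast is not firm. The sequences are RefSeq's on GRCm38.p6, the 250 bases before each gene's start, at chr8:83290098-83290347 on the + strand for Ucp1, chr12:90739039-90739288 on the - strand for Dio2 and chr5:51567726-51567975 on the - strand for Ppargc1a. Capitals mark TGACG, the short core of the cAMP response element, on either strand (CGTCA on the other), merged where 2 matches overlap.
Ucp1: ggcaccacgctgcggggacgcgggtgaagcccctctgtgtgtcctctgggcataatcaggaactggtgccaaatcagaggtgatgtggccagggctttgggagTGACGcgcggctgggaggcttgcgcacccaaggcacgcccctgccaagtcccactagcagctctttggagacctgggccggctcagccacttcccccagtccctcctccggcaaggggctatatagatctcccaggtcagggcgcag
Dio2: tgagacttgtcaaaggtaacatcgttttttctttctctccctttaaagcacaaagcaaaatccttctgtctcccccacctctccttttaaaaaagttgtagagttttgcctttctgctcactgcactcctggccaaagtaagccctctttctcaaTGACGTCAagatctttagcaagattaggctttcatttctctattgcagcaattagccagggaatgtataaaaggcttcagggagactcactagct
Ppargc1a: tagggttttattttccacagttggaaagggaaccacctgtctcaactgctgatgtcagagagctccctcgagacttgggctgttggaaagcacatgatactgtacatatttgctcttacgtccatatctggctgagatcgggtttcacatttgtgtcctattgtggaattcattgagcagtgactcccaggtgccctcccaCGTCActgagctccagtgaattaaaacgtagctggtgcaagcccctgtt
The core starts at -147 from the gene's start in Ucp1 and at -49 in Ppargc1a. In Dio2 the matches at -95 and -92 form the full palindrome TGACGTCA. Of the 8 genes 6 had a promoter in the table, and 3 of them held the short core, as did 17.8% of 32851 promoters. The full element was found in 1 of the 6, against 1.55% of all. AGGTCA, the core bound by nuclear receptors, was found in Ucp1 at -14 and in 14.0% of all promoters. CTTTGA, the core of sites for the TCF/LEF partners of β-catenin, was found in Dio2 at -241 and Tmem26 at -51, and in 13.8% of all promoters. Both strands were searched. The motifs were chosen with the genes in view, a match is a description of these letters, and known distal enhancers lie outside these windows.

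The wider set of brown and beige fat genes also held members on both sides. Limma put 6 of the 30 tested higher on the cΔex3-labelled arrays and 8 lower (6 and 9 before adjustment), and their median difference was 0.04. Both counts are near the shares over all genes tested, and nothing is read from them. Slc36a2, an amino acid transporter of the fat cell surface, was higher by 7.52 ± 1.19 (SE, adjusted p = 0.0020), although only 1 of 3 control-labelled arrays was well above background. Lhx8, a homeobox gene of the brown fat signature, was not well above background on any control-labelled array and was at least 7.65-fold higher (1.24 on the log2 scale with normexp). It is 1 of the 6 and passed the filter through the cΔex3-labelled arrays alone. The small heat shock gene Hspb7 was higher by 4.14 ± 0.48 (SE), also with 1 of 3 control-labelled arrays well above background. Tnfrsf9, whose product CD137 marks beige cells, fell by 4.00, although a second probe gave -0.66. The nucleoside transporter Slc29a1 fell by 2.33 and Oplah, an enzyme of glutathione turnover, fell by 2.24, with cΔex3-labelled array 4 apart at 0.69. With only probes well above background on all 7 arrays, 3 of the list were higher. Shox2 was too dim to be tested.

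Among the regulators that promote the brown program, 5 of 22 were higher and 9 lower. The count lower was 7 with quantile normalisation, with the deposited series values and with each gene's dimmest tested probe, and 10 with normexp. Of the 5, Ebf2 and Zfp516 passed the filter through the cΔex3-labelled arrays alone. Ebf2, which marks brown and beige precursors and opens brown fat enhancers, was well above background on all 4 cΔex3-labelled arrays and on 0 of 3 control-labelled arrays, and was at least 65.6-fold higher. Foxc2, a forkhead factor that raises sensitivity to β-adrenergic signals, was higher by 3.75 ± 0.37 (SE). Ppara, a fatty acid receptor abundant in both liver and brown fat, fell by 5.47. Its partner Rxra fell by 2.24 and the orphan receptor Esrrb by 2.73. Med1, a Mediator subunit that binds Prdm16, fell by 3.99 at its brightest probe, with cΔex3-labelled array 4 apart at 3.03, but its other 3 probes gave 0.13, -0.21 and -0.83. With only probes well above background on all 7 arrays, 3 of the list were higher.

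Of the 12 genes listed here as repressors of the brown program, which may have other roles too, 9 rose and 0 fell (limma, with 10 and 0 at an unadjusted p under 0.05). The median difference of the 12 was 2.05. Zfp423, which restrains Ebf2 in white fat cells, was higher by 4.32 ± 0.66 (SE), with 0.65 and 3.67 at its other probes. Twist1, which binds PGC-1α and blocks its targets, was higher by 3.97 ± 0.34 (SE). Zfp521 was higher by 3.54, the calcium channel gene Trpv4 by 3.32, the corepressor gene Ctbp2 by 2.81 and the retinoblastoma gene Rb1 by 2.05. Prdm16 and these listed genes were thus higher on the same arrays. Many of them are also expressed by fibroblasts and white fat cells, whose markers moved with them, and that part was not tested.

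The β-adrenergic and cAMP genes included 7 of 19 that rose and 4 that fell, and their median difference was 0.83. The list is not confined to signalling upstream of Ucp1, Dio2 and Ppargc1a, since it also holds the lipases Lipe and Pnpla2, both among the 7. Adrb3, the β3-adrenergic receptor of fat cells, reached 6.72, 6.09, 6.76 and 5.21 on the cΔex3-labelled arrays, against 0.49, 0.92 and 0.03 on the control-labelled arrays, a difference of 5.71 ± 0.43 (SE, adjusted p = 8.2e-05). Prkar2b, the regulatory subunit of protein kinase A that predominates in fat, was higher by 7.87 ± 0.47 (SE). The lipases Lipe and Pnpla2, which release fatty acids from stored fat, rose by 4.84 and 1.99. Adcy3, an adenylyl cyclase and 1 of the 7, was at least 5.18-fold higher (0.86 on the log2 scale with normexp), with 0 of 3 control-labelled arrays well above background, so it too was tested only through the brighter group. Prkar1a fell by 1.02, and its other probe gave 0.32. The count higher was 11 with the deposited series values and 11 without cΔex3-labelled arrays 1 and 4, and the count lower was 2 with the deposited series values and with quantile normalisation. Lipe and Pnpla2 are also in the list of general fat cell markers.

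Thyroid hormone genes, the setting in which Dio2 works, were higher for 1 of 12 and lower for 5. The receptor gene Thra was higher by 2.14 ± 0.24 (SE), while Thrb fell by 1.44. Dio1, the deiodinase of liver and kidney, fell by 6.41. The difference of Dio2 was 0.98 but -0.38 with normexp, so no contrast between the 2 deiodinases is drawn. The transporter gene Slc16a10 fell by 1.67, with 0.08 at its second probe. Secisbp2, needed to build selenocysteine into deiodinases, fell by 0.81, but its dimmer probe gave -0.37, which did not pass. March6, listed with them, had no probe matched here.

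Relatives of Ucp1 were measured as well, and 2 of 7 mitochondrial carriers were higher and 1 lower. The ADP/ATP carriers went opposite ways, with Slc25a4 higher by 2.25 ± 0.26 (SE) and Slc25a5 lower, at -1.78 ± 0.15 (SE). Slc25a27 (Ucp4) was higher by 1.49. Ucp2 (1.15 ± 0.47, SE) and Ucp3 (1.42 ± 0.57, SE) did not pass, at limma adjusted p of 0.076 and 0.070. Both passed without control-labelled array 3 (1.69 and 2.02) or without cΔex3-labelled array 4 (1.38 and 1.75), and a second Ucp3 probe gave 5.09. Slc25a30 (-0.64) passed only without control-labelled array 1 (-1.03), and Slc25a14 (0.14) did not pass. The call of Slc25a27 was lost without cΔex3-labelled arrays 1 and 4 (1.19).

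The machinery around Elovl3, the elongation cycle of very long chain fatty acids, was higher for 1 of 12 and lower for 4. Elovl2 fell by 6.86, Elovl5 by 2.76, Elovl6 by 2.29 and the dehydratase gene Hacd3 by 2.79, whereas Hacd4 was higher by 2.53. The call of Elovl6 was lost in 9 other settings, which included leaving out control-labelled array 1 (-1.87) or 2 (-2.22) and cΔex3-labelled array 1 (-2.05), 2 (-1.93) or 3 (-2.24). Hacd2 was at 0.57 ± 0.23 (SE) and did not pass, except in 8 other settings such as without cΔex3-labelled array 4 (0.72). In all of them the differences were smaller than that of Elovl3.

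Among the two-pore potassium channels related to Kcnk3, 2 of 12 were higher and 6 lower. Kcnk1 was higher by 5.07 ± 0.94 (SE), and Kcnk2 was at least 2.13-fold higher with 0 of 3 control-labelled arrays above background, but it stood at -0.05 with normexp. Kcnk2, 1 of the 2, was thus tested only through the brighter group. Kcnk10 fell by 4.33, with 1 of 4 cΔex3-labelled arrays well above background. Kcnk5 fell by 2.78, Kcnk15 by 1.21 and Kcnk4 by 1.04, although the dimmer Kcnk4 probe gave -0.40 and did not pass. In the Prdm family 3 of 11 were higher and 2 lower, and Prdm8 and Prdm6 passed the filter through the cΔex3-labelled arrays alone. Prdm4 was higher by 0.81 ± 0.18 (SE), and Prdm8, below background on all control-labelled arrays, by at least 7.11-fold. Prdm12 fell by 3.04 and Prdm15 by 1.12, the second a call lost in 14 other settings, among them without any 1 of the arrays except control-labelled array 1 (range -1.55 to -0.83). Prdm6 (1.59) did not pass, except between arrays of 1 mouse (2.33) and without cΔex3-labelled array 3 (2.42). The call of Prdm12 was lost with the deposited series values (-0.95).

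Mitochondrial biogenesis genes, which PGC-1α induces, included 0 of 14 that rose and 9 that fell (limma, with 0 and 10 at an unadjusted p under 0.05), and their median difference was -0.91. The mitochondrial deacetylase gene Sirt3 fell by 3.21. Tfam, which packages and transcribes mitochondrial DNA, fell by 1.33, its partner Tfb1m by 1.39, the helicase gene Twnk by 1.42, the RNA polymerase gene Polrmt by 0.95 and the ATP synthase subunit gene Atp5b by 1.15. The Atp5b call was lost with quantile normalisation (-0.10) and with the deposited series values (-0.03). Without cΔex3-labelled array 4, 2 of the 14 were higher. Ppargc1b, the paralogue of Ppargc1a, also fell, at -1.63 ± 0.43 (SE, adjusted p = 0.016).

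Heat can also be made without Ucp1, by cycling creatine, calcium or lipids, and 3 of 11 such genes were higher and 6 lower. Lipe, 1 of the 3, is also counted among the β-adrenergic genes and the general fat cell markers. Atp2a2, 1 of the 6, is counted again among the isoform pairs below. Ckb, the creatine kinase of the creatine cycle, was higher by 2.83 ± 0.47 (SE). Pm20d1, which makes uncoupling N-acyl amino acids, fell by 5.58, Gamt by 2.92, Ckmt1 by 1.34 and Gpd2 by 1.10. The call of Gamt was lost without control-labelled array 2 (-2.70). Of 6 genes that mark the somite lineage of classical brown fat, 4 were tested. The homeobox genes Meox2 and Meox1 were higher by 8.59 ± 0.71 and 4.68 ± 0.59 (SE), Meox2 with 1 of 3 control-labelled arrays well above background. Pax7 fell by 1.37 and Pax3 (0.46) did not pass. Myf5 and En1 were too dim.

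Brown fat and muscle share isoforms that stand in for ubiquitous ones, and among 12 genes of such pairs 1 was higher and 4 were lower. Slc2a4, the insulin-responsive glucose transporter of fat and muscle, was higher by 7.23 ± 0.82 (SE). Cpt1a, the liver form of the carnitine transferase, fell by 2.45. The ubiquitous complex IV subunits Cox6a1 and Cox7a2 fell by 0.99 and 1.00 and the calcium pump gene Atp2a2 by 0.61. Cox6a1 stood at 0.28 with quantile normalisation and at 0.37 with the deposited series values, and its call was lost without control-labelled array 1 (-0.97). The calls of Cox7a2 and Atp2a2 were lost in 10 and 11 other settings, with ranges of -1.21 to -0.83 and -0.77 to -0.46 when single arrays were left out. The brown and muscle form Cox8b, at 2.62 ± 1.80 (SE), did not pass (limma adjusted p = 0.256). Between the arrays of 1 mouse alone, which are fewer, the calls of Thrb, Secisbp2, Elovl2, Elovl6, Kcnk2, Prdm4, Prdm12, Prdm15, Gamt, Gpd2 and Atp2a2, of the genes named above, were lost. The differences there were -1.64 for Thrb, -0.80 for Secisbp2, -6.23 for Elovl2, -2.16 for Elovl6, 2.49 for Kcnk2, 0.88 for Prdm4, -2.93 for Prdm12, -0.66 for Prdm15, -2.73 for Gamt, -1.03 for Gpd2 and -0.63 for Atp2a2.

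**Figure D4:**
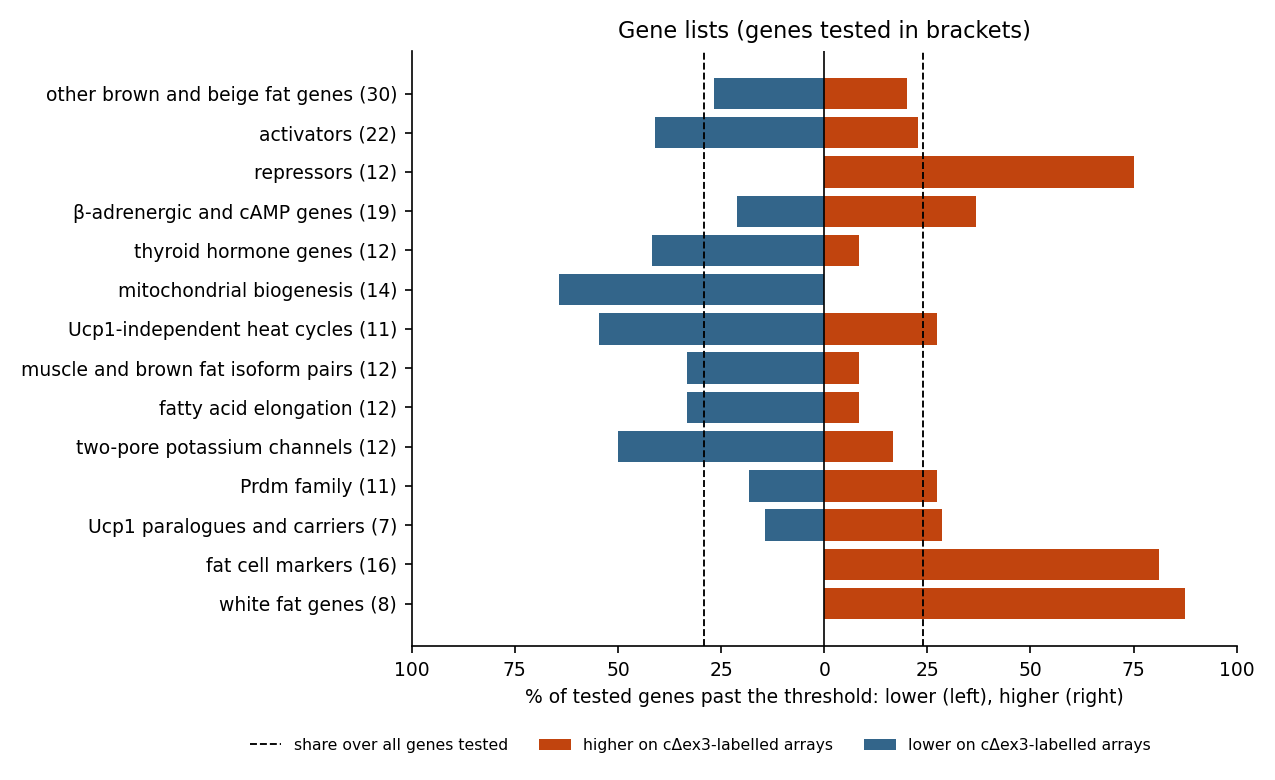
Share of each list's tested genes that were lower (left) or higher (right) on the cΔex3-labelled arrays at a limma adjusted p under 0.05, with the number tested in brackets; dashed lines mark the shares over all 18030 genes tested, 29.1% lower and 24% higher. Repressors were higher for 9 of 12 and mitochondrial biogenesis genes lower for 9 of 14.

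Within the cΔex3 group, Ucp1, Kcnk3, Elovl3 and Zic1 were highest on arrays 2 and 3, the arrays of 2 mice. The lowest of these arrays exceeded the highest array of 1 mouse by 1.44 for Ucp1, 2.01 for Kcnk3 and 1.45 for Elovl3, so 3 of the 8 genes lay at least 2-fold higher on the arrays of 2 mice and 0 at least 2-fold lower. The 2 arrays were both above the arrays of 1 mouse, by any amount, for 4 of the 8 genes and both below them for 2, against 29.9% and 18.8% of all genes. Over all genes tested 1.86% lay at least 2-fold higher there and 1.91% at least 2-fold lower. Prdm16, Dio2, Ppargc1a and Tmem26 did not share this order. Of the 30 other brown and beige fat genes, 16 were above on arrays 2 and 3 and 8 were at least 2-fold higher on arrays 2 and 3. They were Cox8b, Slc36a2, Cidea, Cpt1b, Fgf21, Plin5, Cox7a1 and P2rx5, and all but Slc36a2 and Cox8b are named because of these values. This order compares cΔex3-labelled arrays with each other only. Against the control-labelled arrays, Slc36a2 and P2rx5 alone of these genes were higher without overlap. The mean differences from control were -2.07 for Plin5, -1.86 for Fgf21 and -0.07 for Cpt1b, and positive for the rest. Cox8b and Cox7a1 are subunits of respiratory complex IV found in brown fat and muscle, Cidea coats lipid droplets and Cpt1b admits fatty acids to mitochondria. This order was noticed in the values and was not tested, and the 2-fold limit was chosen after seeing them.

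Cox8b read 0.12, 4.05, 4.04 and -1.09 on cΔex3-labelled arrays 1 to 4, against 2.27, -3.60 and -1.20 on control-labelled arrays 1 to 3. Cidea read 0.15, 3.22, 3.01 and -2.60, against 0.49, -3.88 and 5.37. Both overlapped between the groups, and control-labelled array 3, which also held 2 mice, carried the highest Cidea level of the 7. P2rx5, a purinergic receptor of brown and beige fat cells, read -1.89, 0.41, 0.12 and -3.12, against -3.47, -4.98 and -3.78. General fat cell markers were higher on arrays 2 and 3 for 13 of 16 genes, though for 0 of 16 by 2-fold, and Lep and Mest of the white fat genes by 1.75 and 2.37. Endothelium markers were higher on arrays 2 and 3 for 5 of 6 genes, 1 of them by 2-fold, and averaged 1.34, 1.90, 1.92 and 0.45 on cΔex3-labelled arrays 1 to 4. Macrophage markers were higher there for 2 of 4 and averaged 3.72, 4.11, 3.86 and 2.55. Dermal sheath markers ran the other way for 6 of 8 genes and averaged 2.94, 2.23, 2.03 and 2.79. The part of these cells in the order of the arrays was not tested.

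Skeletal muscle shares Cox8b and Cox7a1 with brown fat, and 10 of its 12 listed markers were tested. Of these, 1 was higher on both arrays 2 and 3 than on arrays 1 and 4, and 3 were lower on both. The tested muscle markers averaged -3.29, -3.45, -3.40 and -2.42 on the cΔex3-labelled arrays and 0.04, -4.35 and -4.29 on the control-labelled arrays. Control-labelled array 1 was thus high in muscle markers, and it also held the highest control levels of Cox8b and of Cox6a2 (2.30, against -3.21 and -2.23 on control-labelled arrays 2 and 3). The part of muscle in these levels was not tested. Heart markers averaged -2.54, -2.94, -3.51 and -2.90 on the cΔex3-labelled arrays, with array 2 close to array 4. Of the 6 heart genes, 1 was higher on both arrays 2 and 3 than on arrays 1 and 4, and 0 were lower on both. Arrays 2 and 3 also had fewer probes well above background, 68.0% and 70.0%, than arrays 1 and 4 with 81.0% and 82.0%. Mice per array and that share moved together, and their parts cannot be told apart here. Of the remaining marker lists, epididymis markers, written down after values had been seen, averaged -4.26, -0.74, 0.79 and 2.35 on the cΔex3-labelled arrays and so followed another order.

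**Figure D5:**
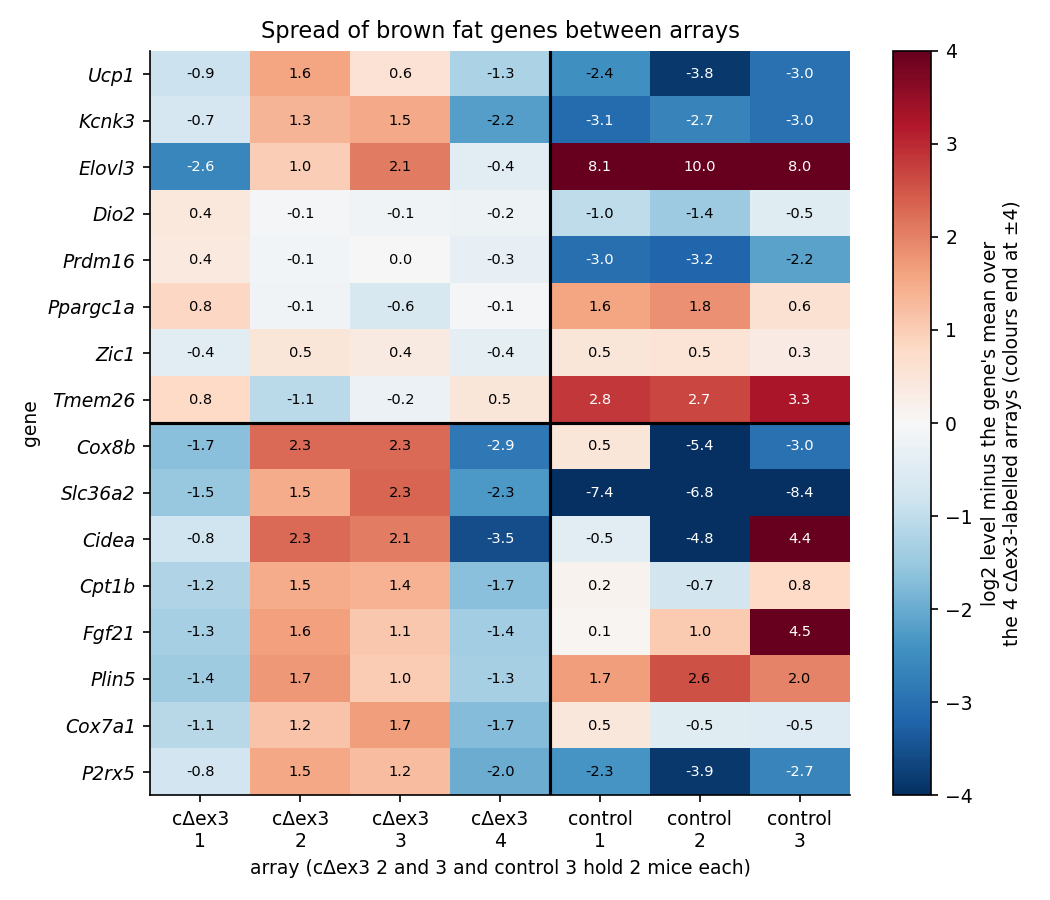
Log2 level of the 8 genes (above the line) and of 8 other brown fat genes (below it, chosen because they were at least 2-fold higher on cΔex3-labelled arrays 2 and 3) on each array, minus the gene's mean over the 4 cΔex3-labelled arrays. Ucp1, Kcnk3, Elovl3 and Zic1 share the pattern of arrays 2 and 3 above arrays 1 and 4 with the lower genes, while Prdm16, with a span of 0.72, does not.

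The genes whose 7 values ran closest to those of each gene, after each gene's own mean was subtracted, differed from gene to gene. For Ucp1 these were Gnat3, Cryab and P2rx5, at root mean square distances of 0.33, 0.36 and 0.39 on the log2 scale, and P2rx5 is the only gene of the wider brown and beige list among them. Ppargc1a ran closest to Insl5, Il13ra1 and its paralogue Ppargc1b (0.21, 0.23 and 0.24). Elovl3 ran closest to Apoc4, Adh4 and Cyp2c23, genes known from liver, at 0.81, 0.83 and 0.84. Prdm16 lay nearest to Bicc1, Eno2 and Pdp1 (0.14, 0.15 and 0.16), and Kcnk3 to Dnajb13, Ltc4s and Stambpl1 (0.22, 0.26 and 0.30). Dio2 lay nearest to Tmem47, Tcstv3 and Ttc8 (0.11, 0.15 and 0.15), Zic1 to Mrps14, Uqcc2 and Hras (0.07, 0.07 and 0.08) and Tmem26 to Slc26a10, Gpt2 and F8 (0.32, 0.34 and 0.34). None of the 8 genes had another of the 8 among its nearest 3. These are distances over 7 arrays that share groups and RNA makeup, and they say nothing of shared function.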

How the data were processed

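Total RNA from 10 mice, labelled as that of sorted cells, was measured on 7 one-colour mouse arrays, 4 labelled cΔex3 and 3 labelled control. Agilent Feature Extraction 10.7.1.1 quantified the spots, from 1 scan of 1 slide, per the file headers. The deposited processed signal is an intensity on a linear scale, background-subtracted and detrended per the file headers and not normalised between arrays. Raw median and local background intensity, as deposited, served the normexp alternative (offset 50); the files hold no mean signal, which that alternative was planned on. Deposited flags (other values, 0 or 1) gave outlier spots, saturation (0 spots) and spots well above background. The authors deposited a series table of log2 values whose making is not stated; its column medians were all 7.41, and its normalisation between arrays and background handling are unknown.

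The processed signal was scaled to each array's 75th percentile and taken as log2 here. Control and outlier spots were left out and spots of a probe were averaged. Probes were named through unversioned accessions and a RefSeq gene table (GRCm38.p6): 28026 of 55681 had a name and 27655 none. The array layout uses another build, so no probe coordinates are given; promoter windows are RefSeq's on GRCm38.p6. A probe was well above background where most of its spots were, and it was tested where this held on at least 3 of 7 arrays. Per gene the tested probe with the highest mean was used. Groups were compared with limma 3.58.1 (lmFit, eBayes, two-sided, no covariate, R 4.3.3) with Benjamini-Hochberg adjustment over 18030 genes and a threshold of 0.05. All adjusted p-values printed are limma's; beside an at-least fold they are not given. Only the limma fit, and no earlier step, was checked on simulated data. These had independent noise and fewer changed genes than were called here.

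The 8 genes and all lists were chosen with earlier results of these data known. Named are the 8 genes, all genes of lists of up to 7, the up to 6 tested genes of longer lists with the smallest p, the 3 nearest genes of each of the 8, and the first markers; Cidea, Cpt1b, Fgf21, Plin5, Cox7a1, P2rx5, Cox6a2, Lep, Mest, Ppargc1b, Hoxc8, Slc7a10, Col11a1, Zfp516, Ctnnb1, Axin2 and the epididymis list were named after values had been seen. Some genes that this rule names are not reported here. The titles call the samples biological replicates. The replicate numbers did not pair the arrays. Alternatives were other background, scaling, filter, probe and block choices, and leaving out arrays; that without cΔex3-labelled arrays 1 and 4 and the signal used for normexp were chosen after seeing the data.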

Additional observations from a re-analysis of the deposited data

Results flagged for a closer look

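Of 97 genes checked for a single array apart from the other 3 of the cΔex3 group, 2 stood out by Dixon's criterion for 4 arrays, and chance alone marks about 1 group in 20. Med1, the Mediator subunit, read 3.03 on cΔex3-labelled array 4 and 2.27, 2.36 and 2.34 on arrays 1 to 3. Oplah read 0.69 on array 4 and 1.85, 1.79 and 1.85 on arrays 1 to 3. None of the 8 brown and beige fat genes was marked.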

How the results depend on the processing

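All 8 genes kept their direction in every alternative run that held them except Dio2, which was -0.38 with normexp, and the cause was not tested. Ucp1, Dio2, Elovl3 and Tmem26 were absent from the run on probes well above background on all 7 arrays. Probe choice could change nothing for genes with 1 tested probe. The replicate block gave these genes the same differences as leaving out cΔex3-labelled array 4. Leaving out each array in turn gave 2.57 to 3.52 for Ucp1, 0.75 to 1.22 for Dio2, 2.59 to 3.10 for Prdm16, -1.71 to -1.10 for Ppargc1a, -9.37 to -7.81 for Elovl3, 2.40 to 3.64 for Kcnk3, -0.62 to -0.31 for Zic1 and -3.19 to -2.56 for Tmem26. Reversed values were 0.32 for Prkar1a and 0.083 for Slc16a10 (dimmest tested probe), -0.076 for Slc25a14 (arrays of 1 mouse), -0.051 for Kcnk2, -0.34 for Prdm6 and -0.012 for Pax3 (normexp), and 0.28 and 0.37 for Cox6a1 (quantile normalisation and deposited series values). With probes well above background on all 7 arrays, other brown and beige genes higher were 3 and promoting regulators higher 3, since fewer genes were tested. The β-adrenergic count was 11 higher with the deposited series values and 11 without cΔex3-labelled arrays 1 and 4, and 2 lower with quantile normalisation and with the deposited series values. Mitochondrial biogenesis genes higher were 1 with quantile normalisation, with the deposited series values, with the replicate block and without arrays 1 and 4, and 0 to 2 when single arrays were left out, with 2 without cΔex3-labelled array 4. Leaving out single arrays gave 4 to 7 higher and 6 to 9 lower for the other brown and beige genes, 4 to 6 and 6 to 9 for the promoting regulators, 6 to 10 and 3 to 4 for the β-adrenergic genes and 6 to 10 lower for the mitochondrial genes. Over all genes, leaving out single arrays gave 3242 to 4917 higher and 3996 to 5570 lower. The median of all genes was -0.08, against 0.13 with quantile normalisation and -0.19 with normexp, and the split was 5166 higher to 4308 lower and 3540 to 6079. Arrays of 1 mouse alone gave 2986 and 3752. With the replicate block 4493 genes were higher and 4980 lower; same-numbered arrays deviated together with r of -0.009, -0.001 and 0.018, so the numbers do not pair them. Ucp1 was well above background on 0 of 3 control-labelled arrays and Dio2 on 1 of 3, and Tmem26 on 2 of 4 cΔex3-labelled arrays.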
